A study of Homo sapiens with 30 samples.

Results

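The 8 genes described here are 7 transcription factors that mark intestinal epithelium (CDX1, CDX2, HNF4A, HNF4G, GATA6, KLF4 and KLF5) and SOX2, a factor of embryonic foregut and pluripotent cells. They were taken by gene symbol from count tables of 24462 symbols, and all 8 had at least 1 count. Messenger RNA was measured by 3′ tag sequencing in 30 libraries, which fall into 10 groups of 3 and come from the human colorectal cancer lines Caco2, HCT116 and SW480. The cells were transduced with retrovirus and selected with puromycin. In Caco2, which differentiates toward small-intestinal enterocytes in culture, cells with a scramble hairpin were kept in vehicle or in a differentiation medium. That medium held troglitazone (10 µM), which activates PPARG, and 1α,25-dihydroxyvitamin D3 (25 nM), which activates the vitamin D receptor. Caco2 cells with a hairpin against SETDB1, the enzyme that trimethylates lysine 9 of histone H3, were divided into KRT20-negative and KRT20-positive cells. KRT20 is a keratin of mature gut epithelium. HCT116 and SW480 each gave a SETDB1-hairpin KRT-negative group, a SETDB1-hairpin KRT-positive group and an unsorted group. The labels do not give the hairpin of the unsorted cells or the medium of the SETDB1-hairpin cells, so hairpin, medium and sorting cannot be told apart in comparisons that cross them. They also do not say whether replicates were separate cultures, and p-values then measure only the spread between these libraries.

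CDX1 and CDX2 are caudal-type homeobox proteins that set intestinal fate in the embryo and keep it in the adult. HNF4A and HNF4G are nuclear receptors that bind enhancers of absorptive genes, GATA6 is a zinc finger factor of endoderm and crypt cells, and KLF4 and KLF5 are Krüppel-like factors, KLF4 in differentiated and KLF5 in dividing epithelium. SOX2 marks stomach and oesophagus precursors, where it and CDX2 occupy opposite sides of the boundary between foregut and intestine.

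Promoters are shown for the gene that fell most in Caco2, SOX2, for its counterpart CDX2, and for HNF4A, which has 2 annotated starts that 3′ tags do not separate. Each line holds the 250 bases before a RefSeq start in GRCh38.p14, read on the gene's own strand. Capitals mark matches, on either strand, to 6 motifs. The letters searched for CDX factors were TTTATG and those for HNF4 factors were CAAAGTCCA. GATA factors were searched as AGATAA, and KLF and SP factors as CCACCC. A half-site of nuclear receptors was searched as AGGTCA, and SOX factors as AACAAT. None of these overlapped another in the promoters shown.
SOX2, chr3:181711675-181711924, plus strand: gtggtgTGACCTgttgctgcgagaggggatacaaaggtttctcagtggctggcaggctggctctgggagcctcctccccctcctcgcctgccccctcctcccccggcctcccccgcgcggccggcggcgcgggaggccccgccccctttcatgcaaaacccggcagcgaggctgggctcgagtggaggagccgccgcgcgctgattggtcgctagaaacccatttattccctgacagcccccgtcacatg
CDX2, chr13:27969316-27969565, minus strand: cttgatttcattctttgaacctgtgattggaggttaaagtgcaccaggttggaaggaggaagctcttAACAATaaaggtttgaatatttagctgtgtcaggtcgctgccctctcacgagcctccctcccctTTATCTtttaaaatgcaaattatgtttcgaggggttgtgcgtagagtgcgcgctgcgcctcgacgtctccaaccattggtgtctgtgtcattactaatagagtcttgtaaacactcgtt
HNF4A upstream start, chr20:44355449-44355698, plus strand: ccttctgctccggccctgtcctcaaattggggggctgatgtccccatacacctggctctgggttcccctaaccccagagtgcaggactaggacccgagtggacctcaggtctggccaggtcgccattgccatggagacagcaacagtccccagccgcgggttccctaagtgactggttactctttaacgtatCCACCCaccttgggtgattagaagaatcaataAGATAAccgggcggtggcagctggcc
HNF4A downstream start, chr20:44400989-44401238, plus strand: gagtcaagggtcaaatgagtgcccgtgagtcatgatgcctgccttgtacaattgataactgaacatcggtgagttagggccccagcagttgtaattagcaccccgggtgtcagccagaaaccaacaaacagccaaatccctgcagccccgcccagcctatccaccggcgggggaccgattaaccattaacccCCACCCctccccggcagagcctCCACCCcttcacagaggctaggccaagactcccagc

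The SOX2 promoter held 1 nuclear receptor half-site, and the CDX2 promoter held 1 GATA and 1 SOX match. The upstream HNF4A promoter held 1 GATA and 1 KLF match, and the downstream one held 2 KLF matches. Over 35116 promoters of the same length, the CDX motif occurred in 9.64%, the HNF4 motif in 0.325%, the GATA motif in 9.17%, the KLF motif in 31.3%, the half-site in 12.1% and the SOX motif in 8.98%. In all, 6 of the 8 genes matched the table, with 8 promoters. In GENCODE 29 on GRCh38, SOX2 lies on chromosome 3 at 181711924 to 181714436, inside the long noncoding gene SOX2-OT, and CDX2 lies on chromosome 13 at 27962137 to 27971139. HNF4A spans 44355700 to 44434596 on chromosome 20. GATA6, at 22169443 to 22202528 on chromosome 18, overlaps 436 bases of the antisense gene GATA6-AS1. CDX1 is on chromosome 5, HNF4G on 8, KLF4 on 9 and KLF5 on 13.

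Libraries held between 5349737 and 10221854 counts. Replicates were closer in Caco2 (Spearman correlation 0.967 to 0.974) than in HCT116 (0.903 to 0.926) or SW480 (0.859 to 0.918), and in those 2 lines a gene could have 0 counts in 1 library and over 50 in its replicate. SETDB1 itself fell from 32.0 ± 1.93 CPM (counts scaled to the size of the library, SD, n = 3) in Caco2 vehicle to 22.2 ± 2.29 in KRT20-negative and 23.6 ± 3.28 in KRT20-positive cells (edgeR adjusted p = 0.00231 and 0.0119). In HCT116 it was 16.4 to 68.2 CPM in unsorted, 0 to 5.43 in KRT-negative and 2.00 to 29.1 in KRT-positive libraries, and against unsorted cells the first passed and the second did not (edgeR adjusted p = 0.0424 and 0.407). In SW480 it was 15.4 to 36.6 CPM in unsorted libraries, 0.224, 3.18 and 36.9 in the KRT-negative libraries and 0 to 12.1 in the KRT-positive libraries, so the SW480 library labelled KRT-negative replicate 1 was at the unsorted level. In SW480 neither fraction passed for SETDB1 (edgeR adjusted p = 0.938 and 0.524). KRT20 was higher in the KRT20-positive than the KRT20-negative fraction of Caco2 (33.8 against 1.35 CPM, edgeR adjusted p = 1.32e-11) and in the KRT-positive fraction of SW480 (57.3 against 0.224 CPM, edgeR adjusted p = 0.0393). In HCT116 KRT-positive libraries KRT20 had 0, 0 and 56 counts, so this check did not separate the HCT116 fractions in 2 of 3 libraries. Of the epithelial markers, CDH17 and VIL1 were at 0 in HCT116 libraries of every group. In Caco2 all 10 fibroblast markers had counts. Their sum was 309.5 to 310.7 CPM in vehicle, 549.6 to 601.3 in differentiation medium, 485.3 to 533.8 in KRT20-positive and 398.0 to 1062 in KRT20-negative libraries. The 1062 is KRT20-negative replicate 3, where the collagen gene COL6A3 alone was at 274 CPM against 6.67 to 18.1 in the other Caco2 libraries. The 7 epithelial markers summed to 4529 to 4576 CPM in vehicle, 5575 to 5692 in differentiation medium, 3354 to 3788 in KRT20-negative and 4067 to 4110 in KRT20-positive libraries, with no overlap between groups. The 6 leukocyte markers summed to 58.3 to 64.1, 68.2 to 72.7, 54.9 to 62.6 and 80.6 to 85.2 CPM in the same order, highest in the KRT20-positive libraries. The sum of 6 neural or pluripotent markers was 60.5 to 65.9 CPM in vehicle, 74.0 to 85.4 in differentiation medium, 43.5 to 48.0 in KRT20-negative and 39.8 to 46.6 in KRT20-positive libraries. What part cells of other types had in the results was not tested.

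Across all 10 groups, CDX2 was highest in Caco2 KRT20-positive cells at 699.7 ± 23.1 CPM (SD, n = 3) and lowest in HCT116 KRT-positive cells at 63.4 ± 21.5. Its order was Caco2 above SW480 above HCT116, and of 9 neighbouring pairs of groups in that order 6 had overlapping libraries. The order comes from the same levels, and such pairs were not counted over all genes, so these counts only describe each factor. HNF4A ranged from 501.7 ± 83.4 CPM in Caco2 KRT20-negative cells to 1.92 ± 3.32 in HCT116 KRT-negative cells, with the 4 Caco2 groups above every other group. KLF5 ranged from 235.5 ± 8.93 CPM in Caco2 KRT20-positive to 19.1 ± 10.2 in HCT116 unsorted cells. For both, 6 of 9 neighbouring pairs overlapped. These 3 genes were the best measured, with 80887, 43843 and 34662 counts over all libraries.

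GATA6 was highest in Caco2 vehicle, at 83.5 ± 5.54 CPM (SD, n = 3), and had 0 counts in SW480 unsorted cells. SOX2 was highest in Caco2 vehicle too, at 47.2 ± 0.985 CPM, followed by the SW480 KRT-negative and unsorted groups (20.1 ± 8.96 and 17.1 ± 12.5), and 4 of its 9 neighbouring pairs overlapped. KLF4 had a different order, from 73.5 ± 11.9 CPM in SW480 KRT-negative cells down to 1.80 ± 0.551 in Caco2 vehicle. HNF4G was low throughout, with a highest group mean of 13.9 ± 14.2 CPM in HCT116 KRT-positive cells, and 8 of its 9 neighbouring pairs overlapped. CDX1 was the exception among the 8: it had 4 counts in all, 1 in a Caco2 vehicle library and 3 in a KRT20-negative library, and 28 libraries were at 0. It passed no filter and was not tested. With 0 counts over 3 libraries a level of up to 0.104 to 0.160 CPM in the other 8 groups is allowed, for counting error only.

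**Figure D1:**
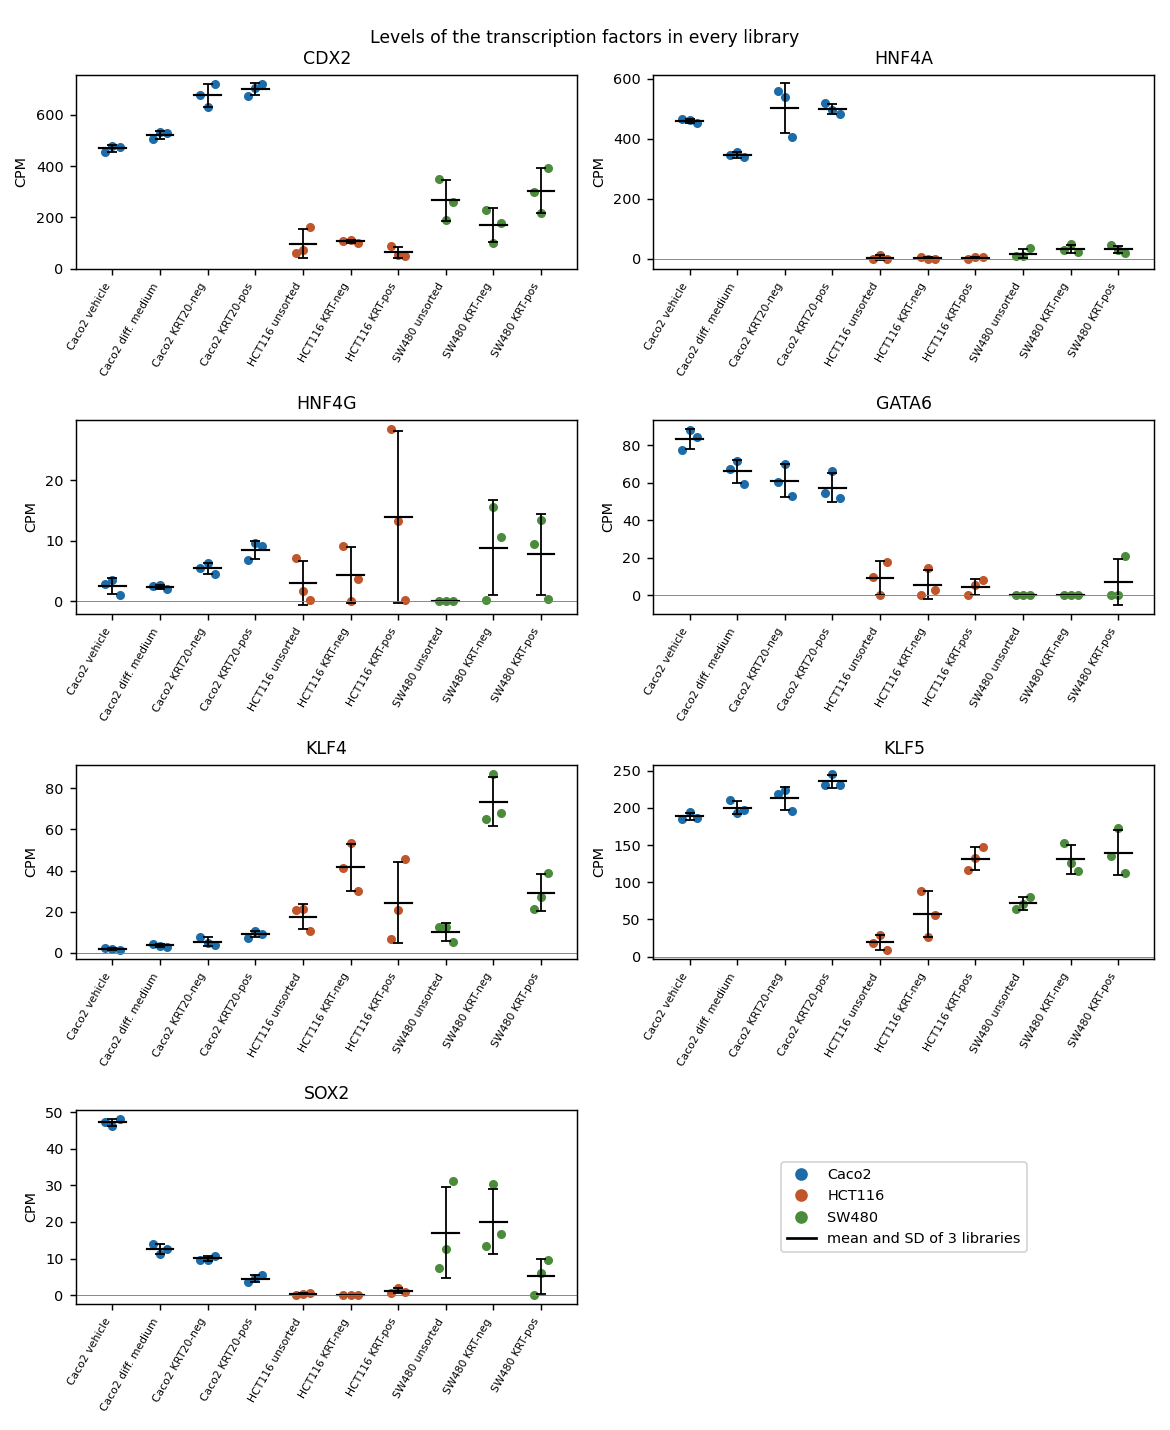
Level of 7 of the 8 factors in CPM (linear axes) in each of the 30 libraries, as points, with the mean and SD of each group of 3 in black. Mean SOX2 went from 47.2 CPM in Caco2 vehicle to 4.51 in KRT20-positive cells. CDX2 stood higher in both SETDB1-hairpin fractions of Caco2 than in its scramble groups, and HNF4A was near 0 in HCT116. CDX1, with 4 counts in all, is not drawn.

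Unsorted HCT116 and SW480 cells and Caco2 vehicle cells were set against each other as baseline comparisons. The hairpin of the unsorted cells is not given, so line, hairpin and handling cannot be told apart in them. Of 7 tested, 5 differed between HCT116 and Caco2, against 33.1% of all genes. KLF4 was 9.73-fold higher in HCT116 (log2 fold change 3.31, SE 0.673, edgeR adjusted p = 0.00540) while CDX2, HNF4A, KLF5 and SOX2 were lower. SOX2 read 0, 0.277 and 0.621 CPM in the 3 HCT116 libraries against 46.1 to 48.1 in Caco2 vehicle (log2 fold change -7.29, SE 0.914, edgeR adjusted p = 0.000442), and the change was -8.18 without HCT116 unsorted replicate 3. HNF4A had 92 counts in 1 HCT116 unsorted library and 0 in the other 2, which gave 0, 12.7 and 0 CPM against 451.5 to 465.0 in Caco2 vehicle. The size of its log2 fold change, -6.64, depends on that 1 library. With 1 library left out the change was -14.7 to -6.07 and passed each time (edgeR adjusted p = 0.000819 to 0.0147). CDX2 was present in every HCT116 unsorted library, at 60.9, 71.0 and 160.9 CPM, but below the 454.1 to 478.3 of Caco2 vehicle (log2 fold change -2.24, SE 0.364, edgeR adjusted p = 0.00177). HCT116 KLF5, at 9.52 to 29.7 CPM, was 9.86-fold below Caco2 vehicle. GATA6 passed only without HCT116 unsorted replicate 2, where it was lower (edgeR adjusted p = 0.00628). No library of the 2 groups overlapped for any of the 5 called genes. They were called from the same libraries, and overlap was not counted over all genes, so this only describes them.

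Between SW480 and Caco2, 5 of 7 tested also differed, against 34.1% of all genes. KLF4 was higher in SW480 (5.57-fold, log2 fold change 2.47, SE 0.653, edgeR adjusted p = 0.0166), and HNF4A, HNF4G, GATA6 and KLF5 were lower. GATA6 and HNF4G had 0 counts in all 3 SW480 unsorted libraries. Taken as 3 counts over the group, this puts GATA6 at least 682-fold lower than in Caco2 vehicle, for counting error only. The spread between SW480 libraries can exceed counting error, as GATA6 had 0, 0 and 212 counts in the KRT-positive libraries. CDX2 was at 188.5 to 349.9 CPM, below every vehicle library, (log2 fold change -0.81, SE 0.349, edgeR adjusted p = 0.103), and SOX2 was at 7.50, 12.6 and 31.2 CPM (edgeR adjusted p = 0.118). Neither passed the test, though SOX2 did without SW480 unsorted replicate 3 (edgeR adjusted p = 0.0298). The HNF4G and KLF4 calls were each lost without any 1 of the 3 vehicle libraries, with edgeR adjusted p-values of 0.0543 to 0.0662 for HNF4G and 0.0557 to 0.0839 for KLF4.

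Between SW480 and HCT116, 5 of 7 differed, against 21.4% of all genes. SW480 had more CDX2, KLF5 and SOX2, and HCT116 more HNF4G and GATA6. SOX2 was 57.2-fold higher in SW480 (log2 fold change 5.84, SE 0.880, edgeR adjusted p = 0.00198). It had 5 counts in the 3 HCT116 libraries, and the log2 fold change was 5.08 without SW480 unsorted replicate 3 and 6.70 without HCT116 unsorted replicate 3. KLF5 was 3.74-fold higher (log2 fold change 1.86, SE 0.351, edgeR adjusted p = 0.00589). The calls of CDX2, HNF4G and GATA6 were each lost on leaving out single libraries. Without HCT116 unsorted replicate 1 all 3 missed the threshold, at edgeR adjusted p = 0.0640, 0.0572 and 0.0657. CDX2 also missed it without HCT116 unsorted replicate 2 or SW480 unsorted replicate 1, HNF4G without HCT116 unsorted replicate 2 or any of the SW480 unsorted libraries, and GATA6 without HCT116 unsorted replicate 3 or any of the SW480 unsorted libraries (edgeR adjusted p = 0.05004 to 0.0732). HNF4A passed only without HCT116 unsorted replicate 2 (edgeR adjusted p = 0.00953). In the HCT116 unsorted libraries GATA6 read 9.65, 0 and 18.0 CPM and HNF4G 7.09, 1.66 and 0.207, so these differences rest on uneven libraries.

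In Caco2 cells with the scramble hairpin, 3 of the 7 tested factors were lower in differentiation medium than in vehicle and none was higher, against 20.9% of all genes called. SOX2 fell 3.75-fold, HNF4A fell 1.33-fold and GATA6 fell 1.26-fold. CDX2, HNF4G, KLF4 and KLF5 did not pass the test.

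SOX2 read 47.3, 46.1 and 48.1 CPM in vehicle and 13.9, 11.2 and 12.6 in differentiation medium (log2 fold change -1.90, SE 0.142, edgeR adjusted p = 7.98e-10). The 2 groups lay far apart. HNF4A read 465.0, 463.8 and 451.5 CPM in vehicle and 346.0, 356.5 and 337.9 in differentiation medium (log2 fold change -0.41, SE 0.0883, edgeR adjusted p = 0.00177), again without overlap. Its antisense neighbour HNF4A-AS1 stayed under 1 CPM in every library of Caco2. GATA6 read 77.5, 88.5 and 84.5 CPM in vehicle and 67.5, 71.5 and 59.4 in differentiation medium (log2 fold change -0.33, SE 0.112, edgeR adjusted p = 0.0351). That call was lost without vehicle replicate 2 or 3 or without differentiation medium replicate 1 or 3 (edgeR adjusted p = 0.122, 0.0959, 0.0782 and 0.175).

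KLF4 was low in both scramble groups, at 2.44, 1.54 and 1.43 CPM in vehicle and 4.32, 3.31 and 2.82 in differentiation medium, and did not pass (log2 fold change 0.94, SE 0.352, edgeR adjusted p = 0.0623). Without vehicle replicate 1 it passed at 0.0495. CDX2 was 469.0 ± 13.0 CPM (SD, n = 3) in vehicle and 522.6 ± 15.7 in differentiation medium, and KLF5 188.4 ± 4.79 and 200.2 ± 8.59, with edgeR adjusted p-values of 0.104 and 0.431.

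Both SETDB1-hairpin fractions of Caco2 had more CDX2, HNF4G and KLF4 and less GATA6 and SOX2 than scramble vehicle cells. In KRT20-negative cells 3 of 7 tested factors were higher and 2 lower, against 36.2% of all genes called. In KRT20-positive cells 4 were higher, KLF5 included, and 2 lower, against 37.7%. HNF4A did not pass in either fraction, though in KRT20-positive cells it did in the fit of those 2 groups alone (log2 fold change 0.14, edgeR adjusted p = 0.0464). These comparisons and the differentiation medium comparison share the vehicle libraries.

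CDX2 read 454.1, 478.3 and 474.5 CPM in vehicle, 677.9, 629.7 and 720.4 in KRT20-negative and 674.6, 704.6 and 719.9 in KRT20-positive cells. All 6 hairpin libraries lay above all scramble libraries, those in differentiation medium included. The fitted changes were 0.53 on the log2 scale (SE 0.0682, edgeR adjusted p = 1.45e-06) and 0.60 (SE 0.0683, edgeR adjusted p = 2.27e-07).

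HNF4A in KRT20-negative cells read 558.9, 540.1 and 406.0 CPM, so that replicate 3 lay below all vehicle libraries and the other 2 above them. This is the library with the high sum of fibroblast markers, 1062 CPM. Whether cells of another type were present, or had a part in the HNF4A value, was not tested. With all 3 libraries the change was 0.13 on the log2 scale (SE 0.0876, edgeR adjusted p = 0.269), and without replicate 3 it was 0.25 and passed (edgeR adjusted p = 0.00211). KRT20-positive cells read 519.0, 497.4 and 484.0 CPM, all above vehicle, with a change of 0.14 (SE 0.0878, edgeR adjusted p = 0.227).

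HNF4G had few counts, 6 to 25 per vehicle library. It read 2.82, 3.51 and 0.953 CPM in vehicle, 5.44, 6.33 and 4.52 in KRT20-negative and 6.75, 9.53 and 9.03 in KRT20-positive cells. Both fractions lay above vehicle without overlap, by 1.13 on the log2 scale (SE 0.320, edgeR adjusted p = 0.00761) and by 1.79 (SE 0.313, edgeR adjusted p = 7.65e-05). Without vehicle replicate 3, the lowest library, the first of these was 0.78 and missed the threshold (edgeR adjusted p = 0.0512).

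GATA6 read 60.4, 70.2 and 53.0 CPM in KRT20-negative and 54.5, 66.2 and 51.8 in KRT20-positive cells, below the 77.5 to 88.5 of vehicle. The changes were -0.45 on the log2 scale (SE 0.111, edgeR adjusted p = 0.00291) and -0.52 (SE 0.113, edgeR adjusted p = 0.000744). GATA6-AS1, which is transcribed from the opposite strand, was at 85.0 ± 3.14, 67.3 ± 2.18, 75.6 ± 9.62 and 54.7 ± 5.66 CPM (SD, n = 3) in vehicle, differentiation medium, KRT20-negative and KRT20-positive cells. Whether counting used strand is not stated, so reads in the 436 shared bases cannot be told apart. Those bases lie where transcription of both genes starts, and the libraries are of 3′ tags. How many reads fell in the shared bases, and whether they had a part in these levels, was not tested.

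**Figure D2:**
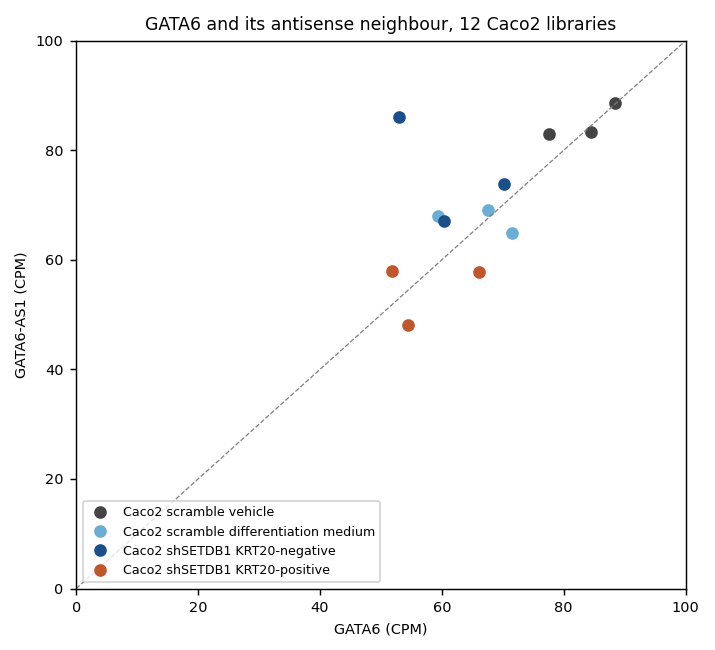
GATA6 on the x axis and its antisense neighbour GATA6-AS1 on the y axis, both in CPM, in the 12 Caco2 libraries, with a dashed line where both are equal. The vehicle libraries have the highest values of GATA6, 77.5 to 88.5 CPM, and the KRT20-positive libraries lie low in both.

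KLF4 was the factor with the largest rise in Caco2. It read 2.44, 1.54 and 1.43 CPM in vehicle, 7.56, 4.87 and 3.47 in KRT20-negative and 7.32, 10.6 and 9.17 in KRT20-positive cells. The hairpin libraries lay above the vehicle libraries in both cases, 2.94-fold for KRT20-negative cells (log2 fold change 1.53, SE 0.331, edgeR adjusted p = 0.000839) and 5.01-fold for KRT20-positive cells (log2 fold change 2.32, SE 0.321, edgeR adjusted p = 3.66e-06). Counts were 9 to 19 per vehicle library.

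KLF5 started from a level of 185.5 to 194.0 CPM in vehicle. It read 218.9, 223.6 and 195.3 CPM in KRT20-negative cells and 230.4, 245.8 and 230.2 in KRT20-positive cells. Only the second group passed, with a 1.25-fold rise (log2 fold change 0.34, SE 0.0738, edgeR adjusted p = 0.000755). In KRT20-negative cells the edgeR adjusted p was 0.0632 with all libraries and 0.0112 without replicate 3.

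SOX2 changed most in absolute log2 terms. It read 9.69, 9.62 and 10.7 CPM in KRT20-negative and 3.52, 4.63 and 5.39 in KRT20-positive cells, against 46.1 to 48.1 in vehicle. The fall was 4.71-fold in KRT20-negative cells (log2 fold change -2.23, SE 0.143, edgeR adjusted p = 1.38e-11). It was 10.4-fold in KRT20-positive cells (log2 fold change -3.36, SE 0.162, edgeR adjusted p = 4.86e-14). Counts fell from 303 to 369 per vehicle library to 25 to 40 per KRT20-positive library. The host transcript SOX2-OT had 0 to 7 counts per Caco2 library. In bulk RNA, fewer cells with SOX2 and less SOX2 per cell cannot be told apart.

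Set against the other SETDB1-hairpin fraction, KRT20-positive Caco2 cells differed in 1 of 7 tested factors, with 4.08% of all genes called. SOX2 was 2.22-fold lower (log2 fold change -1.13, SE 0.178, edgeR adjusted p = 0.000289), and its 3 KRT20-positive libraries lay below every KRT20-negative library. The other 6 did not pass, among them KLF4 at 1.70-fold (log2 fold change 0.79, SE 0.273, edgeR adjusted p = 0.118), which passed at 0.0258 without KRT20-negative replicate 1. HNF4G (log2 fold change 0.65, SE 0.279) and KLF5 (0.16, SE 0.0732) did not overlap between the fractions but had edgeR adjusted p-values of 0.231 and 0.262. HNF4A differed by 0.01 on the log2 scale (SE 0.0875).

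Against scramble cells in differentiation medium, the KRT20-negative fraction had 3 of 7 factors higher, with 38.0% of all genes called. These were CDX2 (log2 fold change 0.37, SE 0.0680), HNF4A (0.53, SE 0.0881) and HNF4G (1.18, SE 0.321), with edgeR adjusted p-values of 0.000134, 4.18e-05 and 0.00541. KLF4 passed only without KRT20-negative replicate 3 (edgeR adjusted p = 0.0267). The KRT20-positive fraction had 5 of 7 higher and SOX2 lower, with 34.5% of all genes called. KLF4 was 2.59-fold higher (log2 fold change 1.38, SE 0.291, edgeR adjusted p = 0.000658) and SOX2 2.79-fold lower (log2 fold change -1.46, SE 0.177, edgeR adjusted p = 6.48e-07). KLF5 passed too (log2 fold change 0.25, SE 0.0736, edgeR adjusted p = 0.0103), but not without KRT20-positive replicate 2 (edgeR adjusted p = 0.0545).

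**Figure D3:**
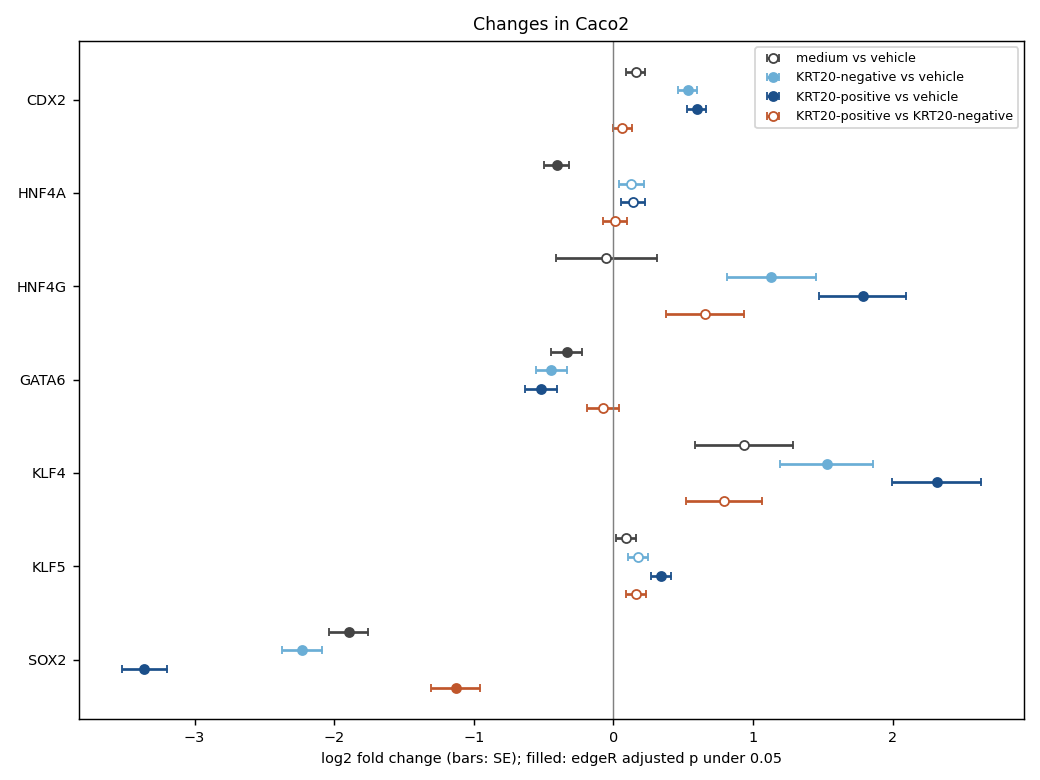
Fitted log2 fold change (x axis) of the 7 tested factors in 4 Caco2 comparisons, with bars of 1 SE and filled points where the edgeR adjusted p was under 0.05. SOX2 lies left of 0 in all 4, from -1.13 to -3.36. KLF4 and HNF4G lie furthest to the right against vehicle in the KRT20-positive fraction.

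**Figure D4:**
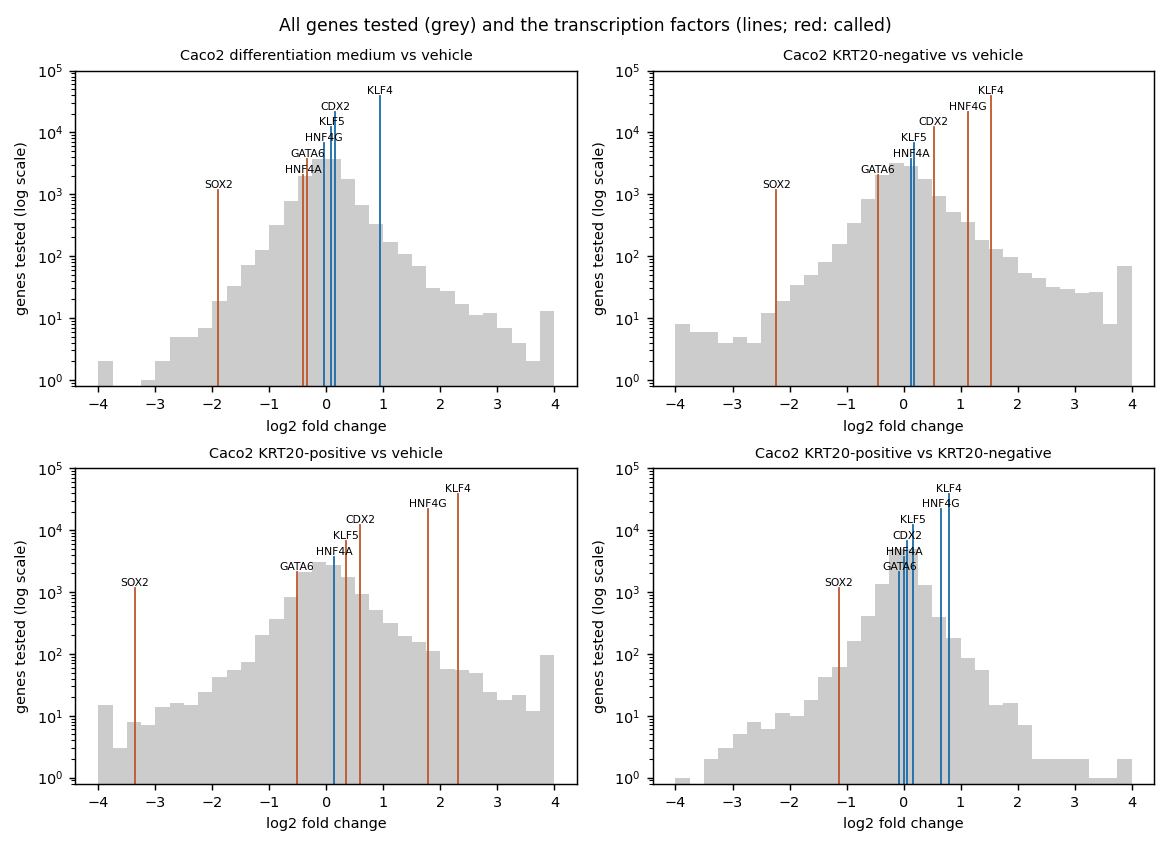
Histograms of the fitted log2 fold changes of the 13968 genes tested in Caco2 (y axis, log scale; the end bars also hold values beyond 4 and -4), with the 7 factors as lines, red where called. SOX2 lies in the lower tail in the 3 comparisons against vehicle, while CDX2, HNF4A, GATA6 and KLF5 lie within 1 of 0.

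In HCT116 and SW480 fewer factors passed, and the spread between replicates was wider. In HCT116, none of the 6 tested differed in KRT-negative cells against unsorted cells by edgeR, with 5.26% of all genes called. By unadjusted edgeR p under 0.05 it was 1 of 6, beside 2350 of all 13279 genes tested. DESeq2 called 1. In KRT-positive cells 1 of 6 was higher, with 9.28% called. Between the fractions 0 of 6 were called by edgeR, with 0.550% of all genes called, and 0 by DESeq2. Here 1 of 6 had an unadjusted edgeR p under 0.05, beside 1490 of 13279 genes. The share of all genes called by DESeq2 is not given here, so its counts only describe these factors.

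The factor that rose was KLF5. It read 18.1, 29.7 and 9.52 CPM in unsorted, 88.8, 26.4 and 56.2 in KRT-negative and 116.0, 132.1 and 147.3 in KRT-positive HCT116 cells. The KRT-positive libraries lay above all others of the line, 6.89-fold over unsorted cells (log2 fold change 2.81, SE 0.476, edgeR adjusted p = 0.00139). KRT-negative cells overlapped the unsorted libraries and missed the threshold (log2 fold change 1.61, SE 0.459, edgeR adjusted p = 0.0526). Without KRT-negative replicate 2 or unsorted replicate 2 that comparison passed, at edgeR adjusted p = 0.0177 and 0.0358.

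CDX2 in HCT116 read 60.9, 71.0 and 160.9 CPM in unsorted, 106.2, 111.9 and 98.9 in KRT-negative and 88.0, 53.4 and 48.7 in KRT-positive cells. The fractions did not overlap, but their difference did not pass (log2 fold change -0.73, SE 0.369, edgeR adjusted p = 0.495). KLF4 read 21.0, 21.3 and 10.4 CPM in unsorted, 41.5, 53.2 and 30.2 in KRT-negative and 6.59, 20.6 and 45.5 in KRT-positive cells, a wide range with no call. HNF4A had counts in 4 of 9 HCT116 libraries, 51 to 92 where present. SOX2 had 38 counts in the 3 KRT-positive libraries (0.699, 1.91 and 0.874 CPM), 1 count in the KRT-negative and 5 in the unsorted libraries, and was below the filter in this line.

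In SW480, KLF4 was the called factor. It read 12.4, 12.5 and 5.26 CPM in unsorted, 65.2, 87.2 and 68.2 in KRT-negative and 21.3, 27.2 and 38.9 in KRT-positive cells, with no overlap between any 2 groups. KRT-negative cells were 7.32-fold above unsorted cells (log2 fold change 2.88, SE 0.514, edgeR adjusted p = 0.00842), which made 1 of 6 tested, with 2.12% of all genes called. Without KRT-negative replicate 2 the change was 2.74 and missed the threshold (edgeR adjusted p = 0.0529). In KRT-positive cells KLF4 was 2.90-fold above unsorted cells and did not pass (log2 fold change 1.58, SE 0.492, edgeR adjusted p = 0.104). The KRT-positive comparison had 0 of 6 called by edgeR, with 3.47% of all genes called, and 3 by DESeq2. By unadjusted edgeR p under 0.05 it was 3 of 6, beside 2239 of all 13252 genes tested. Between the SW480 fractions 0 of 6 were called by edgeR, with 0.445% of all genes called, and 0 by DESeq2. Here 2 of 6 had an unadjusted edgeR p under 0.05, beside 1469 of 13252 genes. The share of all genes called by DESeq2 is not given here.

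KLF5 in SW480 read 63.8, 70.7 and 80.2 CPM in unsorted, 152.5, 125.2 and 115.3 in KRT-negative and 134.6, 172.4 and 112.9 in KRT-positive cells. Both fractions lay above the unsorted libraries without passing (edgeR adjusted p = 0.148 and 0.0671). HNF4G had 0 counts in unsorted cells, 2, 139 and 100 in KRT-negative and 93, 124 and 3 in KRT-positive cells, and was not called by edgeR (adjusted p = 0.169 and 0.128). SOX2 read 7.50, 12.6 and 31.2 CPM in unsorted, 13.4, 30.3 and 16.6 in KRT-negative and 0, 5.95 and 9.54 in KRT-positive cells. The SW480 fractions did not overlap for SOX2, yet the difference did not pass (log2 fold change -1.93, SE 1.36, edgeR adjusted p = 0.710). GATA6 had 212 counts in 1 KRT-positive SW480 library, 2 in a KRT-negative library and 0 in the other 7.

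**Figure D5:**
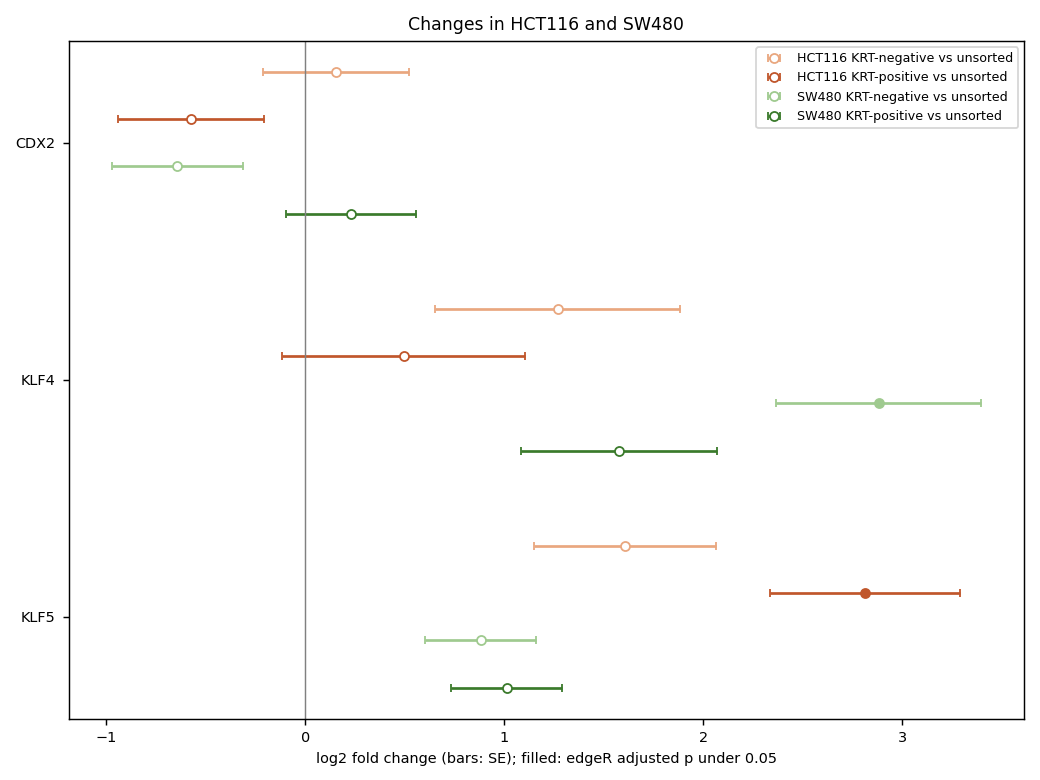
Fitted log2 fold change (x axis) of CDX2, KLF4 and KLF5 in the KRT-negative and KRT-positive fractions against unsorted cells of HCT116 and SW480, with bars of 1 SE and filled points where the edgeR adjusted p was under 0.05. The 2 filled points are KLF5 in HCT116 KRT-positive cells (2.81) and KLF4 in SW480 KRT-negative cells (2.88).

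The step from KRT-negative to KRT-positive cells was then set against the same step in another line, by an interaction term over all 30 libraries. Between HCT116 and Caco2, 0 of 7 tested factors differed by edgeR, with 0.502% of all genes called, and 1 by DESeq2. By unadjusted edgeR p under 0.05 it was 3 of 7, beside 1646 of all 16150 genes tested. Between SW480 and Caco2, 0 of 7 differed by edgeR, with 1.02% called, and 0 by DESeq2. Here 2 of 7 had an unadjusted edgeR p under 0.05, beside 2281 of 16150 genes. The share of all genes called by DESeq2 is not given here. Between SW480 and HCT116, 1 of 7 differed, with 2.14% called. This was SOX2 (difference of log2 steps -6.56, SE 1.64, edgeR adjusted p = 0.0367). It was below the low-count filter within HCT116 and was tested here only because the filter over all 30 libraries was met in the other lines. SOX2 had 1 count in the HCT116 KRT-negative group and 0 counts in 1 SW480 KRT-positive library, so the size depends on counts near 0 and no difference in steps is drawn from it. The call was lost without HCT116 KRT-negative replicate 1 or 2, HCT116 KRT-positive replicate 2 or SW480 KRT-negative replicate 2 (edgeR adjusted p = 0.0637, 0.0795, 0.0698 and 0.0659). The CDX2 step between these lines differed by 1.54 (SE 0.426, edgeR adjusted p = 0.0528), and passed without HCT116 KRT-positive replicate 1, SW480 KRT-negative replicate 1 or SW480 KRT-positive replicate 2 (edgeR adjusted p = 0.0315, 0.0272 and 0.0174). The KLF5 step passed without HCT116 KRT-negative replicate 1 (edgeR adjusted p = 0.0384).

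Of 36 genes listed as targets of CDX or HNF4 factors, 32 were tested in Caco2. The list is not limited to absorptive cells and holds the mucin MUC2 and the plasma protein TTR. In KRT20-negative cells 20 were higher and 3 lower than in vehicle (median log2 fold change 0.94, all tested genes 0.01, 36.2% of them called). In KRT20-positive cells 22 were higher and 2 lower (median 1.28, all tested 0.01, 37.7% called). In differentiation medium 6 were higher and 10 lower (median -0.11, all tested 0.00, 20.9% called). Leaving out 1 library gave 5 to 6 higher and 7 to 8 lower in differentiation medium. It gave 18 to 20 and 3 in KRT20-negative cells, and 22 to 25 and 2 in KRT20-positive cells. FABP1, which carries fatty acids in the enterocyte, rose from 65.6 ± 5.08 CPM (SD, n = 3) in vehicle to 1085 ± 109 in KRT20-negative and 1858 ± 135 in KRT20-positive cells (edgeR adjusted p = 1.3e-19 and 1.11e-20). LCT, the lactase of the brush border, rose from 2.87 ± 0.924 to 49.6 ± 4.80 and 139.6 ± 4.01 CPM. The transmembrane mucin MUC13 rose from 15.7 ± 2.75 to 45.7 ± 1.61 and 150.7 ± 2.31. TTR, the plasma carrier of thyroxine, was at 193.2 ± 3.43 CPM in vehicle and 196.1 ± 9.10 in differentiation medium, but at 1597 ± 120 and 1551 ± 52.2 in the 2 fractions. PHGR1 went the other way, from 212.1 ± 14.4 CPM in vehicle to 65.7 ± 9.84 in differentiation medium and 87.6 ± 5.20 and 144.6 ± 6.48 in the fractions, and passed in all 3. Between the fractions 11 of the list were higher in KRT20-positive cells and 0 lower by edgeR, with 4.08% of all genes called. Without KRT20-negative replicate 3, the library with the high fibroblast-type sum, 20 were higher and 3 lower than vehicle in that fraction.

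Of 31 other gut transcription factors, 27 were tested in Caco2. In KRT20-negative cells 14 were higher and 4 lower than in vehicle, in KRT20-positive cells 15 and 5, and in differentiation medium 4 and 9. The 9 became 5 to 8 on leaving out 1 library, with 5 without differentiation medium replicate 1. Without KRT20-negative replicate 3 the counts of that fraction were 14 and 3. The medians were 0.33, 0.35 and -0.18 on the log2 scale, beside 0.01, 0.01 and 0.00 over all tested genes, of which 36.2%, 37.7% and 20.9% were called. ISX, an intestinal homeobox factor that represses vitamin A uptake genes, went from 19.1 ± 0.420 CPM (SD, n = 3) in vehicle to 25.6 ± 2.96 in differentiation medium, 44.5 ± 3.61 in KRT20-negative and 54.4 ± 2.37 in KRT20-positive cells. ELF3, an epithelial ETS factor, was at 129.5 ± 7.96, 221.4 ± 13.7, 192.8 ± 7.01 and 238.6 ± 1.28 CPM in the same order. CREB3L3, a membrane-bound regulator of lipid metabolism, rose 6.95-fold in KRT20-positive cells (edgeR adjusted p = 6.01e-10). ASCL2, which marks crypt stem cells, fell 2.05-fold there and 1.99-fold in differentiation medium.

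Of the 15 other members of the Krüppel-like family, 11 were tested in Caco2. Against vehicle, 7 were higher and 1 lower in KRT20-negative cells, 7 and 2 in KRT20-positive cells and 4 and 0 in differentiation medium, with 36.2%, 37.7% and 20.9% of all genes called. Leaving out 1 library gave 6 to 7 higher and 0 to 2 lower in KRT20-negative cells, 5 to 6 and 1 to 2 in KRT20-positive cells and 3 to 4 and 0 in differentiation medium. KLF7 rose from 4.80 ± 0.469 CPM (SD, n = 3) in vehicle to 13.9 ± 3.02 and 21.7 ± 5.05 in the fractions. KLF3, a repressor of the family, rose 1.63-fold and 1.67-fold, and KLF6 1.19-fold and 1.33-fold. KLF10 and KLF11, which respond to TGF-beta, rose 1.89-fold and 2.15-fold in KRT20-positive cells and 2.19-fold and 1.75-fold in differentiation medium.

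Of 27 pluripotency, neural and foregut genes listed with SOX2, 10 were tested in Caco2. In KRT20-positive cells 0 were higher and 3 lower than in vehicle (median log2 fold change -0.39), in KRT20-negative cells 1 and 2, and in differentiation medium 1 and 2. With 37.7%, 36.2% and 20.9% of all genes called, 3 of 10 in each comparison is near that background. These counts shifted by 1 on leaving out single libraries. The 3 lower in KRT20-positive cells were PITX1, a hindlimb and epithelial homeobox factor, from 50.1 ± 5.00 to 20.8 ± 2.44 CPM (SD, n = 3), PROM1, a membrane protein of progenitor cells, from 70.1 ± 1.74 to 39.0 ± 3.57, and SOX15, from 78.5 ± 4.26 to 54.8 ± 4.31. LIN28B, which blocks let-7 maturation, fell in differentiation medium (26.4 ± 2.91 to 18.4 ± 2.72 CPM, edgeR adjusted p = 0.0142) and not in the fractions (25.2 ± 1.93 and 21.6 ± 3.67 CPM, edgeR adjusted p = 0.768 and 0.156). TFF2, a gastric trefoil peptide, was at 19.3 ± 1.44, 15.3 ± 2.32, 24.0 ± 9.05 and 25.6 ± 1.21 CPM in vehicle, differentiation medium, KRT20-negative and KRT20-positive cells, with no call. In the comparisons within HCT116 and within SW480 only 4 genes of the list were tested, none of them called. With 0.550% to 9.28% of all genes called in HCT116 and 0.445% to 3.47% in SW480, this is near that background.

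Over the 12 Caco2 libraries, on log2 (CPM + 1), KLF4 and KLF5 were the pair of factors that went together most (Pearson r = 0.930), and KLF4 and SOX2 the pair most opposed (r = -0.892). HNF4A stood apart from SOX2 (r = -0.19) and GATA6 (r = -0.03). The libraries share 4 group means, so these values mostly describe the differences between groups. Genes whose Caco2 mean reached 10 CPM, 9521 or 9522 of them, were ranked by r with each factor. Those most like SOX2 were PHLDB2 (r = 0.986), CBX1 (0.985) and HDAC2 (0.981). Most like CDX2 were IHH (0.985), CTSD (0.983) and GABRE (0.981). For HNF4A they were SOS1 (0.959), UPRT (0.951) and ALDH6A1 (0.950), and for HNF4G CAMKK2 (0.959), SGK1 (0.941) and SYT7 (0.935). For GATA6 they were MAP3K1 (0.963), SLC39A10 (0.941) and PRPF8 (0.935). KLF4 had MRPL53 (0.956), MPP6 (0.955) and TXNIP (0.948), and KLF5 had SORL1 (0.956), LPGAT1 (0.955) and XBP1 (0.951).

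Over the 10 group means of all lines, 12388 genes were ranked in the same way. HNF4A was most like MGMT (0.998), the endoderm factor FOXA2 (0.996) and CISD3 (0.992). CDX2 was most like AKAP1 (0.983), SALL2 (0.982) and POU4F1 (0.978), and GATA6 most like PRPF3 (0.996), CDIP1 (0.992) and PTPRM (0.991). For SOX2 they were the glucose transporter gene SLC2A14 (0.935), LOC645166 (0.934) and SLC2A3 (0.930), of which 1 of 3 stayed with a smaller pseudocount. SLC2A14 and SLC2A3 are near-identical copies, so their tags may be split between them. KLF4 was most like BHLHE41 (0.961), TRIM16 (0.956) and TMEM87A (0.938), KLF5 most like STX3 (0.983), KMT2C (0.982) and ARG2 (0.978), and HNF4G most like UROS (0.917), SEMA3D (0.902) and GPANK1 (0.897). With 3 lines among 10 points, these values mostly describe the differences between lines.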

How the data were processed

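Messenger RNA tags were measured in 30 libraries, 3 in each of 10 groups, with the Lexogen QuantSeq 3′ kit, per the labels' protocols. The authors deposited 1 table of raw counts per gene symbol for each library. The submitters' processing notes name Bowtie2, edgeR and the build hg19, with versions and strand setting not given in the sources used here. Lines that repeated a symbol were summed, leaving 24462 symbols.

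Each line was fitted on its own in edgeR 4.0.16 (R 4.3.3, filterByExpr, TMM, robust quasi-likelihood F test, Benjamini-Hochberg over all genes tested, called at 5% FDR). The baseline comparison used 9 libraries and the comparison of steps all 30. SE is the log2 fold change over the square root of F. The edgeR fit was tested on simulated data. Levels are CPM with TMM factors over all libraries. The labels do not state that replicate numbers are shared cultures, so the main fits used no block. DESeq2 1.42.0, other size factors, no filter, a replicate block, 2 groups only, leaving out each library and a GC trend term (added after seeing the data) were alternatives.

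All 8 genes were named, with SETDB1 and KRT20 as label checks. From each list the 4 tested genes with the smallest adjusted p in Caco2 KRT20-positive cells against vehicle and the 2 in differentiation medium against vehicle were named, and for each factor the 3 most like genes by Pearson r were taken. COL6A3 was named after its values were seen. The genes and lists were chosen with earlier results of these data known, and no list was tested as a set. Marker lists summed epithelial, fibroblast, leukocyte and neural or pluripotent genes. Promoters came from RefSeq on GRCh38.p14 and positions from GENCODE 29 on GRCh38.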

Additional observations from a re-analysis of the deposited data

Results flagged for a closer look

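SOX2 is listed here because the fit over all 30 libraries gave it a difference between SW480 and HCT116 in the step from KRT-negative to KRT-positive cells, -6.56 on the log2 scale (SE 1.64, edgeR adjusted p = 0.0367). In SW480 the 3 KRT-positive libraries (0, 5.95 and 9.54 CPM) lay below the KRT-negative libraries (13.4, 30.3 and 16.6), and in HCT116 the 3 KRT-positive libraries (0.699, 1.91 and 0.874) lay above the KRT-negative ones (0, 0 and 0.0998). SOX2 was below the low-count filter within HCT116, with 1 count in the KRT-negative and 38 in the KRT-positive libraries, and entered this fit through the other lines. The size depends on that group of 1 count and the call was lost in 4 fits with 1 library left out (edgeR adjusted p = 0.0637 to 0.0795), so no difference in steps is drawn from it.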

How the results depend on the processing

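No direction reversed in a called value. The share of all genes called in each alternative is not given here, so the counts below describe the factors and do not set them apart from other genes. Counts of called factors moved by over 1.5 times as follows. In Caco2, differentiation medium against vehicle gave 3, and 5 with the replicate block, which added CDX2 and KLF4. HCT116 KRT-negative against unsorted gave 0, and 1 (KLF5) with DESeq2, with no low-count filter and with the GC trend term. SW480 KRT-negative against unsorted gave 1, and 2 with DESeq2, and KRT-positive against unsorted gave 0, and 3 with DESeq2. KRT-positive against KRT-negative in SW480 gave 0, and 1 (CDX2, adjusted p = 0.0218) with the GC trend term. For the difference in steps, SW480 against HCT116 gave 1, and 2 with RLE size factors, the replicate block and DESeq2, and HCT116 against Caco2 gave 0, and 1 with DESeq2. Leaving out 1 library gave 2 to 4 in Caco2 differentiation medium, 4 to 7 in KRT20-negative and 6 in KRT20-positive cells against vehicle, 1 to 2 between the Caco2 fractions, 3 to 4 and 5 to 6 against differentiation medium. It gave 0 to 1 in KRT-negative HCT116 and SW480 cells, 5 to 6, 3 to 6 and 2 to 4 in the baseline comparisons of HCT116 with Caco2, SW480 with Caco2 and SW480 with HCT116, and 0 to 2 in the SW480 against HCT116 step. Smaller moves each added 1 factor in Caco2 against vehicle: in differentiation medium KLF4 with no low-count filter (adjusted p = 0.0486) and CDX2 with only the 2 groups fitted (0.0438), in KRT20-negative cells KLF5 with the replicate block (0.0314), and in KRT20-positive cells HNF4A with only the 2 groups fitted (0.0464). The cause of these changes was not tested.

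Of the values recomputed with 1 library left out, 802 of 846 stayed on the same side of the threshold, most of them not called in either fit, 30 lost a call and 14 gained one. The replicate block changed 6 of 120 values: HNF4G lost its 2 baseline calls (adjusted p = 0.0542 and 0.0858), CDX2, KLF4 and KLF5 gained Caco2 calls and CDX2 gained the SW480 against HCT116 step. Deviations of same-numbered Caco2 libraries correlated at 0.0384 to 0.246, and 12 of 12 libraries correlated best with their own number, a hint from the data and not the design. Counts per Caco2 vehicle library were 6 to 25 for HNF4G and 9 to 19 for KLF4. In unsorted HCT116 cells HNF4A had 92 counts in 1 library and 0 in its replicates.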
